A study of Mus musculus with 3 samples.

Results

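Meis1, Meis2, Pbx3, Shox2, Irx3 and Irx5 are transcription factor genes of the proximal limb, and the binding of RNA polymerase II (RNAP2) and of the Mediator subunit Med12 around them was examined in the distal forelimb. They are 6 of the 22367 protein-coding genes of the annotation (GENCODE vM1, build mm9), named as a set. The set and the gene lists compared with it below were chosen with earlier results of these data known. For each gene, every peak was taken that overlaps the gene or lies within 200 kb of its start, which gave 36 of the 20479 RNAP2 peaks and 20 of the 10634 Med12 peaks. The windows of the 6 genes do not overlap each other.

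Both proteins were located by ChIP-seq, in which chromatin is fragmented, precipitated with an antibody and sequenced. The tissue was the distal forelimb of mouse embryos at E12.5, the future hand with a part of the wrist, as given by the sample labels, while the text that accompanies the series names an earlier stage. The series has 3 samples, 1 library for RNAP2, 1 for Med12 and 1 of input chromatin, and the 2 antibody libraries have a peak list. No mutation or treatment is given for these libraries, and neither the strain nor the number of embryos pooled is given in the sources used here. There are no replicates, so no difference below has a test, and the 6 genes are set beside all protein-coding genes as a description.

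Meis and Pbx proteins belong to the TALE class of homeodomain proteins and bind DNA with each other and with Hox proteins. In the limb bud, Meis1 and Meis2 mark the future upper arm and are induced there by retinoic acid, and Shox2 is needed for the humerus and femur. Irx3 and Irx5 are neighbouring genes of an Iroquois cluster that act early in the limb bud, in progenitors of proximal and anterior skeleton. RNAP2 transcribes these genes, while Med12 is part of the kinase module of Mediator, the complex that links enhancer-bound factors to RNAP2. RNAP2 together with Med12 away from a promoter was a criterion by which the study picked candidate enhancers.

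A peak is called here "at a start" when it lies within 1 kb of an annotated transcript start, and "distal" when it lies farther than that from every annotated start of any gene. A distal site with both proteins is a distal RNAP2 peak that shares at least 1 bp with a Med12 peak. The score of a peak is 10 times the negative log10 of the peak caller's p-value. Both lists begin at a score of 40, a p-value of 0.0001. Scores rise with depth and peak width, so they are compared within a list and never between the lists. The lists give no read counts, so the depth behind a peak is unknown and no counting error can be given for a score.

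The windows hold 8 distal sites with both proteins, the closest of them 69545 bp from the start of its member gene. The 4 sequences printed first, in mm9 on the plus strand, are the central 300 bases of the overlap of RNAP2 and Med12 at the site with the highest Med12 score in each window that has such a site. Capitals mark any match to TGACAG, a Meis type motif, to TGATNNAT, a type bound by Pbx with Hox proteins, or to CAATAAA, a type bound by posterior Hox proteins, each searched on both strands. The stretch near Meis2 is chr2:115723513-115723812, that near Shox2 is chr3:66874596-66874895, that near Irx3 is chr8:94137551-94137850 and that near Irx5 is chr8:94811091-94811390.
Meis2 distal site: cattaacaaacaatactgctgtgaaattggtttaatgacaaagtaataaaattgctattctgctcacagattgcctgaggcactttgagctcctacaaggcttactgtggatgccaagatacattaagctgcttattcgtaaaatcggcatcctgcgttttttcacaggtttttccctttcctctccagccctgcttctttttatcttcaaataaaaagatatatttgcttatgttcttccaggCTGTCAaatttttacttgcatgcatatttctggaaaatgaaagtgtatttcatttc
Shox2 distal site: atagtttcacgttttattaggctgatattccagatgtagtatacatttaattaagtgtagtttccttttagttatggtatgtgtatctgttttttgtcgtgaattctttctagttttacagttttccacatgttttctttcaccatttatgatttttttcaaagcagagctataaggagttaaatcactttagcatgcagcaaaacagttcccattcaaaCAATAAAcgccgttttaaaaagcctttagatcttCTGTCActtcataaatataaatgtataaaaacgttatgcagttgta
Irx3 distal site: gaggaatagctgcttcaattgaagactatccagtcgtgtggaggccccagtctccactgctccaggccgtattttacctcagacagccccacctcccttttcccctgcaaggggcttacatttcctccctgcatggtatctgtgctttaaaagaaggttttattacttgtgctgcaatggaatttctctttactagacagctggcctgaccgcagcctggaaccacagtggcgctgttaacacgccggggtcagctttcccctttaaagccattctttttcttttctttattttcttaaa
Irx5 distal site: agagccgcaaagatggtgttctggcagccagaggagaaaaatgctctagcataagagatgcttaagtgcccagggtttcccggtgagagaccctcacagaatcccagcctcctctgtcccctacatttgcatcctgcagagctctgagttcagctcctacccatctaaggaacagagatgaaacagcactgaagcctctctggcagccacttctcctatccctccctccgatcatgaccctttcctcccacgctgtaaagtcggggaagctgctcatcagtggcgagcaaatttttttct

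The Meis2 stretch holds 1 match to TGACAG, and the Shox2 stretch holds 1 match to TGACAG and 1 to CAATAAA. The Irx3 and Irx5 stretches hold no match to any of the 3 motifs. Over all 8 sites, 2 windows hold TGACAG, 1 holds TGATNNAT and 1 holds CAATAAA. Of the 2669 distal sites of the whole RNAP2 list, 16.6%, 12.9% and 15.9% hold these motifs in a window of the same length. With 8 windows, whether matches near the proximal genes are more or less frequent than elsewhere cannot be told. The base composition of the 8 windows varied widely, from 30.0% G and C near Shox2 to 52.3% near Irx5, around the median of 43.0% of all such sites.

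The promoters are a different kind of sequence. The next 2 stretches are the 250 bases before the gene start, read on the strand of the gene, of Irx5 and its neighbour Irx3. The Irx5 start lies in an RNAP2 peak scoring 574, and the Irx3 start has none. Irx3 was picked for this contrast after its peaks were seen.
Irx5 upstream: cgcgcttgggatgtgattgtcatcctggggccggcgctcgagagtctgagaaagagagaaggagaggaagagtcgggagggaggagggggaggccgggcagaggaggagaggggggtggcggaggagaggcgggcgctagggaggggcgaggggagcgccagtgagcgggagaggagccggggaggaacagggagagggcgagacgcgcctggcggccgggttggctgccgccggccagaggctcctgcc
Irx3 upstream: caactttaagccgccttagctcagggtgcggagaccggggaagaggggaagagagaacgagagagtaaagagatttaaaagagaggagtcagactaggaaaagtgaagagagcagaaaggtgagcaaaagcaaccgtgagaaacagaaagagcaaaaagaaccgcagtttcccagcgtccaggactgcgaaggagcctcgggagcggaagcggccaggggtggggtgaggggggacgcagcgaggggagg

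From 250 bases before to 50 after the gene start, the 6 promoters hold between 53.3% (Shox2) and 71.0% (Irx5) G and C, against a median of 55.0% over 22362 promoters. The Irx5 promoter has 26 CpG dinucleotides and that of Irx3 has 14, where the median promoter has 11. None of the 6 promoters holds any of the 3 motifs, which 18.1%, 7.86% and 4.15% of all promoters hold.

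RNAP2 was found at the starts of most of these proximal genes in distal cells. A peak lies at a start of 5 of the 6 genes, all but Irx3, and over all protein-coding genes the share is 42.2%. Counting the gene's outermost start alone leaves the 5 genes in place, against 40.0% of all genes. In a tissue as a whole, fewer cells with polymerase at a gene and less polymerase per cell cannot be told apart. Med12 lies at an annotated start of 2 genes, Meis1 and Meis2, but at inner transcript starts and with low scores, where 9.37% of all genes have it at a start. No gene of the 6 has Med12 within 1 kb of its outermost start, which 8.20% of all genes have, and none has a start peak of RNAP2 that overlaps Med12, which 8.65% have. With 6 genes, a count of 0 is also what shares of this size would often give.

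**Figure D1:**
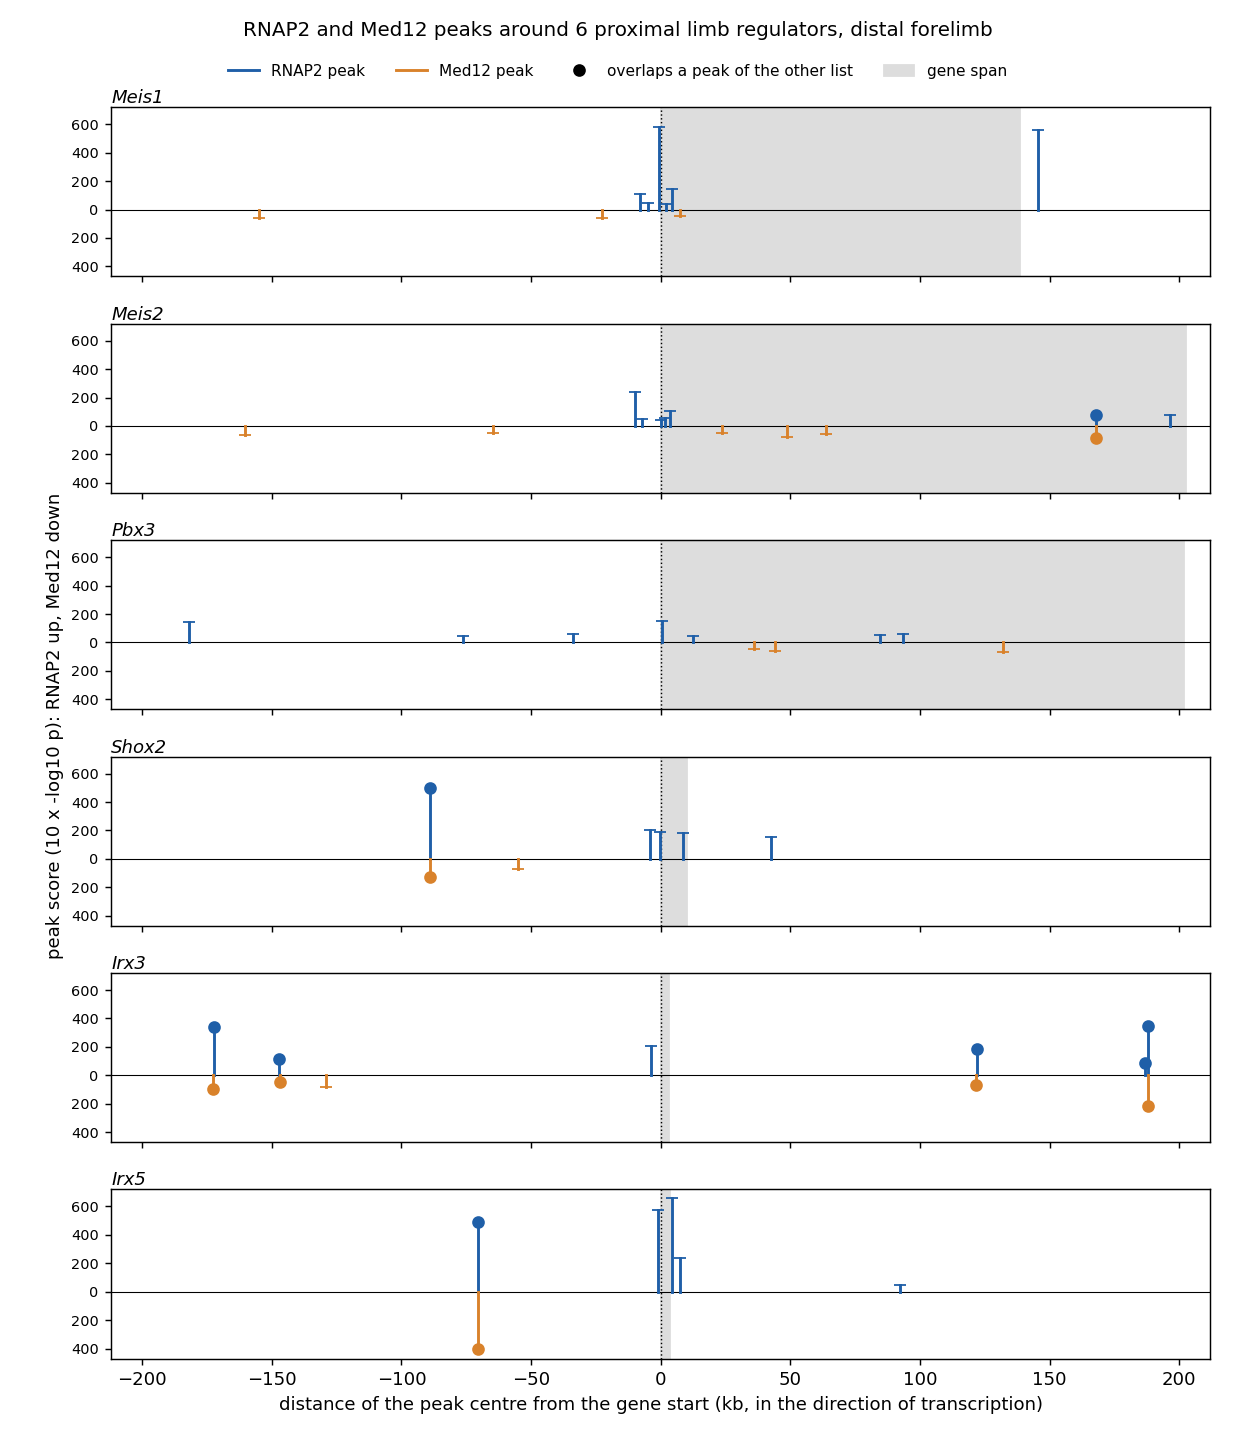
RNAP2 and Med12 peaks in the windows of the 6 genes, with the distance from the gene start in kb, in the direction of transcription, on the horizontal axis and the score as the height of a bar, upward for RNAP2 and downward for Med12, with a dot where it overlaps a peak of the other list. Distal sites with both proteins appear in the windows of Meis2, Shox2, Irx3 and Irx5, with 5 of the 8 around Irx3.

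Meis1 (ENSMUSG00000020160.10) lies on the minus strand of chromosome 11, from 18780433 to 18918961, and encodes a TALE homeodomain protein. Its start is covered by an RNAP2 peak of 4151 bp, from 18917483 to 18921633, with a score of 581. Of the 9439 protein-coding genes with a start peak, 62.0% have a best score as low as this or lower, so that Meis1 stands a little above the middle. Further RNAP2 peaks line the same stretch, with scores of 42.6 inside the gene and of 49.1 and 112 upstream of it. A peak at 18913790 to 18915727, scoring 147, covers the start of the antisense transcript Gm16141 in the first part of Meis1, and since ChIP-seq reads no strand, polymerase on Meis1 and on its antisense transcript cannot be told apart there. The strongest other peak, with a score of 562, lies 5632 bp past the end of Meis1, at the start of the noncoding gene 8430419K02Rik. Med12 has 3 weak peaks in the window, with scores of 42.2, 61.0 and 60.2, and none of them meets RNAP2. The one with a score of 42.2 lies over the inner start of Meis1-006, 6956 bp inside the gene.

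Meis2 (ENSMUSG00000027210.11), the paralogue of Meis1, lies on the minus strand of chromosome 2, from 115688800 to 115891575. Its RNAP2 signal was broken into low peaks. At its starts stand 3 peaks, at 115887102 to 115889264 (score 106), 115889345 to 115890375 (59.35) and 115890847 to 115891832 (43.0), of which the last covers the gene start. The best of these is matched or undercut by only 16.8% of the genes with a start peak, well below the place of Meis1. A stronger distal peak, with a score of 239.5, lies 9320 bp upstream of the start, without Med12. The window has 6 Med12 peaks, a number that only 4.17% of all protein-coding genes reach. Of these, 1 meets RNAP2: in an intron, RNAP2 at 115723140 to 115724271, scoring 79.56, shares 1046 bp with a Med12 peak scoring 84.37. It lies 168 kb inside the gene, counted from the start. The Med12 peak at an annotated start of Meis2 has a score of 49.83 and covers that of Meis2-010, 23793 bp inside the gene.

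Pbx3 (ENSMUSG00000038718.7) encodes a TALE partner of Meis and Hox proteins and lies on the minus strand of chromosome 2, from 34026977 to 34228660. A single peak of 1029 bp that scores 149, at 34227799 to 34228827, covers its start, and 24.1% of genes with a start peak score as low or lower. The gene had no distal site with both proteins. Its 3 Med12 peaks, with scores of 66.1, 62.6 and 46.1, all lie in introns of Pbx3, and no RNAP2 peak touches them. The strongest distal RNAP2 peak of the window, with a score of 144, lies in an intron of the neighbouring gene Mapkap1.

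Shox2 (ENSMUSG00000027833.8) lies on the minus strand of chromosome 3, from 66775649 to 66785693, and encodes a homeodomain protein of the skeleton of the upper limb. The RNAP2 peak at 66784752 to 66787111 scores 192 and covers its start, at or above 29.9% of genes with a start peak. The start of Rsrc1-001, on the other strand, lies 381 bp away within the same peak, so the polymerase of the 2 genes cannot be told apart. Another peak, with a score of 184, lies over the end of Shox2, and together the peaks cover 33.1% of this short gene. Its distal site stands out in score: from 66873975 to 66875620, in an intron of Rsrc1 and 89.1 kb upstream of Shox2, an RNAP2 peak scoring 499 shares 1242 bp with a Med12 peak scoring 126. The distal peak thus scored higher than the start of Shox2 itself. A second Med12 peak of the window, with a score of 69.99, has no RNAP2.

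Irx3 and Irx5 (ENSMUSG00000031734.8 and ENSMUSG00000031737.8) encode Iroquois homeodomain proteins and are transcribed away from each other on chromosome 8, with starts 556142 bp apart. Irx3, from 94322428 to 94325553 on the minus strand, had no RNAP2 peak over its span or within 1 kb of its start. The nearest RNAP2 peak, with a score of 204, lies 2892 bp upstream. Irx5, from 94881695 to 94885351 on the plus strand, had a start peak of 3629 bp with a score of 574, from 94878687 to 94882315, and a peak with a score of 659 over its end. RNAP2 covers 47.5% of Irx5 and none of Irx3. The Irx5 start peak also holds the start of 4933436C20Rik, 1676 bp away on the other strand, so its score cannot be given to Irx5 alone. Of genes with a start peak, 61.8% score as low as Irx5 or lower.

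Irx3 had more distal sites with both proteins than Irx5, though not under every setting. It has 5, a number reached by 0.523% of all protein-coding genes, while at least 1 such site is found near 22.8% of them. By their centres, they lie 122 kb and 188 kb downstream of the Irx3 start and 147 kb and 173 kb upstream of it, where the overlapping pair in Fto is given once. The site with the highest Med12 score lies in an intron of Fto, where an RNAP2 peak scoring 348 meets a Med12 peak scoring 217.5, and the next RNAP2 peak, scoring 88.2, shares 28 bp with that same Med12 peak. Counted by Med12 peaks, Irx3 therefore has 4 such sites, a number reached by 1.19% of all genes. Asking that 50% of the shorter peak be shared also leaves 4. Among peaks with scores of at least 100, Irx3 and Irx5 have 1 site each, and in the gene span alone both have 0. Within 100 kb of the start Irx3 has 0 and Irx5 has 1, and only there does the order of the 2 genes turn. The other 3 Irx3 sites lie between genes, where RNAP2 scored 188, 114 and 337 and Med12 71.85, 47.42 and 95.24 in the same order. Fto is a coding gene in the Irx3 window, and the peaks do not tell which gene a site acts on.

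Irx5 has a single Med12 peak, and it is the strongest near any of the 6 genes. It runs from 94810180 to 94812581, scores 399.96 and ranks 139 in the list of 10634, within the top 1.31%. The RNAP2 peak there, at 94810331 to 94812150, scores 489 and lies wholly inside it. The site lies between genes, 70.5 kb upstream of Irx5, and this RNAP2 score is below those of the 2 peaks over the Irx5 start and end.

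Read over the 6 genes together, every overlap of RNAP2 and Med12 lay away from starts. The counts are too small to set these windows apart from the whole list. Of the 36 RNAP2 peaks, 12 lie at a start of any gene, or 33.3% (95% Wilson interval 20.2 to 49.7), against 47.8% of the whole list. None of these 12 overlaps Med12 (0 to 24.2%), nor do the 7 at the members' own starts (0 to 35.4%), where 18.0% of all RNAP2 peaks at starts do. Of the 24 distal RNAP2 peaks, 8 overlap Med12, or 33.3% (18.0 to 53.3), against 25.0% of all distal RNAP2 peaks. Both intervals hold the value of the whole list, they cover counting error alone, and peaks of 1 window are not independent. Without the Irx3 window, the distal share fell to 3 of 18, or 16.7% (5.84 to 39.2). Seen from Med12, 7 of 20 peaks overlap RNAP2, or 35.0% (18.1 to 56.7), against 42.7% of all Med12 peaks.

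**Figure D2:**
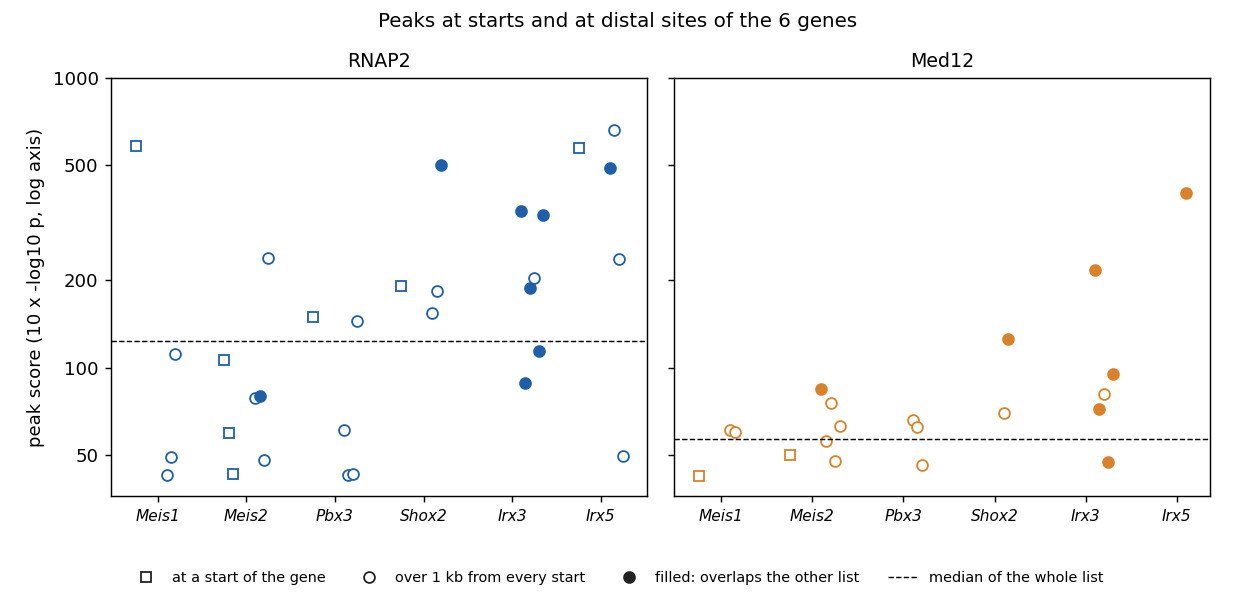
Scores (log axis) of RNAP2 peaks, left, and Med12 peaks, right, for each gene, with squares for peaks at its own starts, circles for distal peaks, filled symbols for overlap with the other list and a dashed line for the median of the whole list. The 7 RNAP2 peaks at the members' starts range from 43.0 to 581, the 8 distal ones with Med12 from 79.56 to 499 and the 16 without Med12 from 42.56 to 659.

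The 7 RNAP2 peaks at the members' starts had a median score of 149, and the 8 distal ones with Med12 had 263, with ranges that overlap. Peaks of 1 gene are not independent, and 3 of the 7 are of Meis2 and 5 of the 8 of Irx3. Taking the best start peak of each gene, the median was 192 for the 5 members with one and 383 for all such protein-coding genes. The 16 distal RNAP2 peaks without Med12 had a median of 95.02. Over the whole list the medians were 137 for distal sites with Med12 and 66.5 for those without. Within 10 kb of the member's start lie 9 of the 16 without Med12, among them the peak over the end of Irx5. Of the 8 with Med12, 0 do, the closest being 69545 bp away, and 5 of the 8 belong to the Irx3 window. Of these 8 sites, 4 lie in an intron and 4 between genes. The matching shares over all distal RNAP2 peaks were not computed, so these counts describe the 6 windows alone. Of the 18 Med12 peaks away from starts, 11 overlap no RNAP2 peak, or 61.1% (38.6 to 79.7), against 67.5% of all such Med12 peaks. Of the 11, 9 lie in the windows of Meis1, Meis2 and Pbx3. The scores of all 11 range from 46.1 to 81.4.

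By the extent of RNAP2 around a start, Meis1, Irx5 and Shox2 kept the order they had by score, while Meis2 and Pbx3 changed places. In the 20 kb centred on the gene start, peaks cover 9699 bp at Meis1 and 9568 bp at Irx5, as much as 0.879% and 0.953% of genes with a start peak. Shox2 with 6048 bp and Meis2 with 5846 bp also lie far above the median of 1635 bp. The cover includes peaks at other starts, such as that of Gm16141 at Meis1 and those of Rsrc1 at Shox2. Irx3, with 1629 bp, stands at that median, and Pbx3, with 1029 bp, below it. For Meis2 in particular, a low score at the start went with many peaks around it.

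The genes were then set beside regulators of the distal limb, the hand program of the dissected tissue, a list also chosen with earlier results known. All 12 of these, among them Hoxa13 and Hoxd13, which pattern the digits, Msx1, and Lhx9, have RNAP2 at a start, with scores from 273 to 3100.00 and a median of 1779.69. The 5 proximal genes with a start peak range from 106 to 581 with a median of 192, and the median of all genes with a start peak was 383. Of the 12 distal regulators, 10 scored above every proximal gene, and Dlx5 (273) and Sall3 (441) did not. In RNAP2 cover of the 20 kb around a start, the distal regulators had a median of 11674 bp, against 5947 bp for the 6 proximal genes. The ranges overlap widely, from 1439 to 19782 bp and from 1029 to 9699 bp. The highest covers are at Hoxd11, Hoxd12 and Hoxd13, whose 20 kb stretches overlap each other. Hoxd13 and Hoxd12 share a start peak, and the windows of the Hoxd genes and of Dlx5 and Dlx6 overlap, so these are not separate observations.

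**Figure D3:**
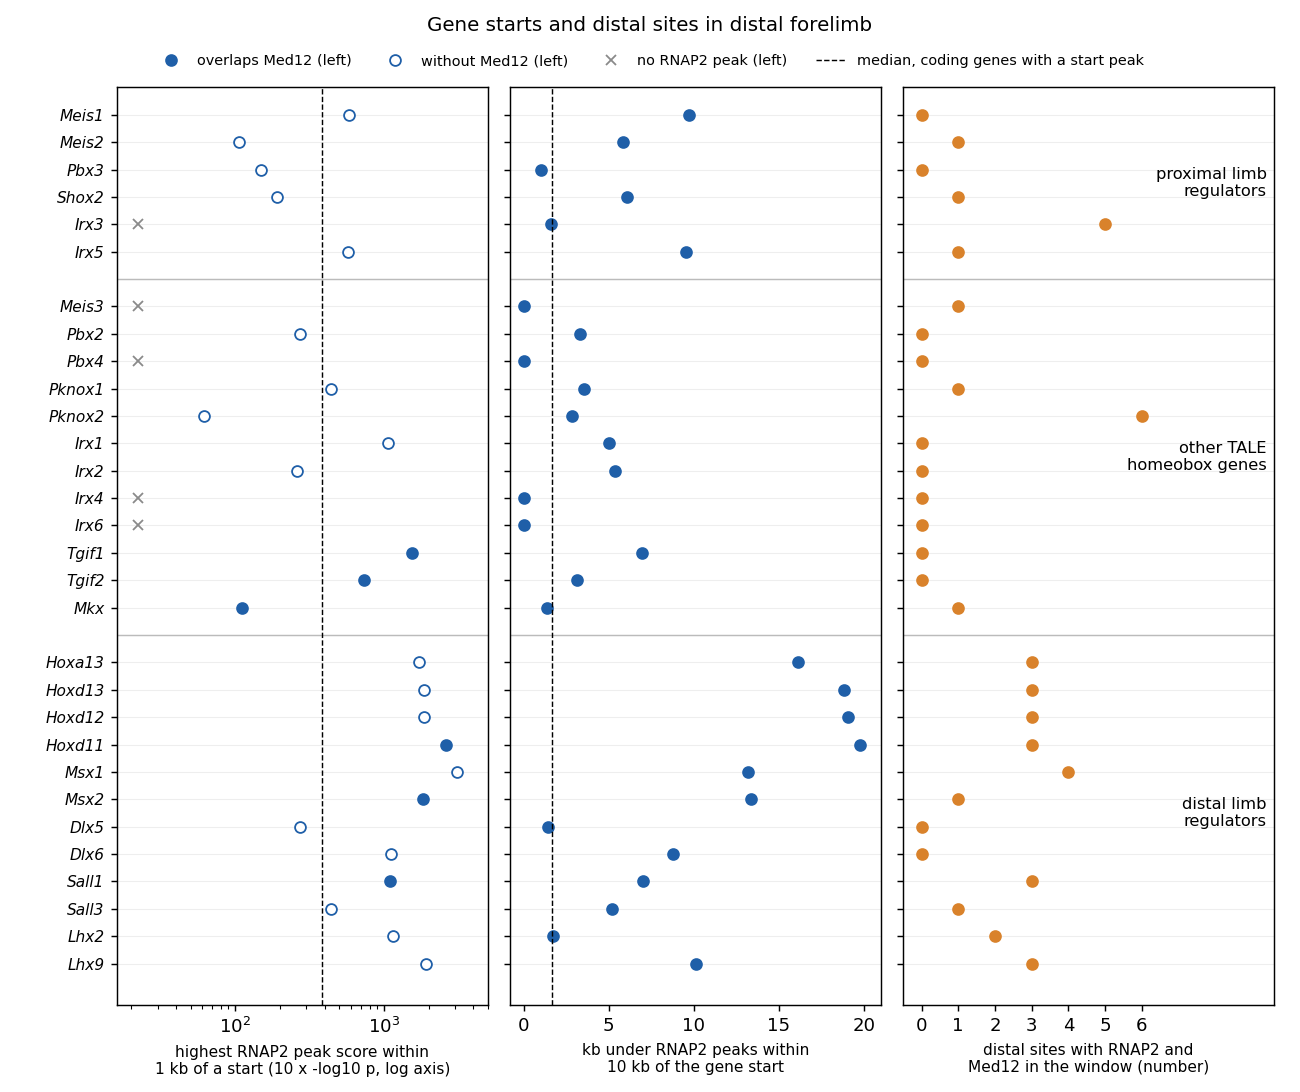
Proximal genes, other TALE genes and regulators of the distal limb compared by RNAP2 score at a start, RNAP2 cover around the start and number of distal sites with both proteins, with 1 point a gene and a dashed line for the median of genes with a start peak. The start scores of the proximal genes lie between 106 and 581, while those of the distal regulators lie between 273 and 3100.00.

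Distal sites with both proteins lie near 4 of the 6 proximal genes, near 10 of the 12 distal regulators and near 4 of 12 other TALE genes, where 22.8% of all genes have one. The median number a gene was 1 for the proximal genes, 3 for the distal regulators and 0 for the other TALE genes. Counting each peak once, 8 of 24 distal RNAP2 peaks near the proximal genes overlap Med12 (33.3%, or 16.7% without the Irx3 window), 20 of 51 near the distal regulators (39.2%) and 9 of 23 near other TALE genes (39.1%). At the genes' own starts, Med12 overlaps 0 of 7 RNAP2 peaks of the proximal genes, 3 of 14 of the distal regulators, at Hoxd11, Msx2 and Sall1, and 3 of 9 of other TALE genes.

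Among 12 other TALE genes, 8 have RNAP2 at a start, with scores from 61.2 to 1538 and a median of 357. The close relatives of the proximal genes were spread over this range: Pbx2 had 272 and the Iroquois genes Irx1 and Irx2 had 1063 and 261. Meis3, Pbx4, Irx4 and Irx6 had no start peak, which leaves Irx6, the third gene of the cluster of Irx3 and Irx5, without RNAP2 at its start, as Irx3 is. Med12 lies at a start of Tgif1, Tgif2 and Mkx, and in each case overlaps RNAP2.

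The labelled tissue carried the marks of limb mesenchyme. All 6 mesenchyme markers examined, Prrx1, Prrx2, Twist1, Msx1, Hoxa13 and Hoxd13, have RNAP2 at a start, with scores from 370.06 to 3100.00, and the last 3 of them also count among the distal regulators above. Of 20 markers of muscle, ectoderm, endothelium, neurons and blood, 4 have it, against 42.2% of all genes. These are Pax3 (283), Kdr (148), Isl1 (1110.05) and Tal1 (205). Med12 lies at a start of 3 of the 6 mesenchyme markers and of 0 of the 20 others, against 9.37% of all genes. Msx1, Hoxa13 and Hoxd13 also lack it, so its absence does not tell the cell types apart. The part of such other cells in the peaks of the proximal genes was not tested.

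The peaks closest to a window without lying in it are those of Meis2, Pbx3 and Irx3. A Med12 peak in Mapkap1, scoring 120.39 and overlapping an RNAP2 peak scoring 70.6, lies 1401 bp beyond the window of Pbx3, and an RNAP2 peak with a score of 461 lies 937 bp beyond that of Meis2, past the end of the gene. An RNAP2 peak scoring 40.15 lies 8151 bp beyond the window of Irx3. Inside the windows, the distal site farthest from its gene start lies 187365 bp from Irx3. The score limit matters as well: 7 of the 36 RNAP2 peaks and 5 of the 20 Med12 peaks score under 50, which corresponds to the p-value of 1e-05 that the methods name, and the 2 Med12 peaks at inner starts of Meis1 and Meis2 are among them.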

How the data were processed

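Per the labels and the study methods, reads lacking their first base were aligned to mm9 by Bowtie, duplicates were dropped, and MACS 1.4.1 called peaks for each antibody on its own. The deposited value used here is the peak score, as the authors' peak caller wrote it. Whether the input served as the control is not given in the sources used here. Total reads per library and counts per peak were not used, so a score has no error of its own.

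Peak positions were compared with GENCODE release 1 for mouse on NCBIM37, the assembly of mm9, in Python 3.11.15 with numpy 2.4.6. Overlaps were checked against bedtools 2.31.1 and counting was tested on simulated peaks. Wilson intervals came from scipy 1.17.1 and plots from matplotlib 3.10.9. Sequences were read from NCBIM37. All 6 genes, the neighbours at a peak and the gene lists are named by rule, except where a choice after seeing values is stated. A further gene of the lists is not reported here. The genes and lists were chosen with earlier results of these data known. Alternatives varied the score limit, window, start distance, start types and overlap.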

Additional observations from a re-analysis of the deposited data

How the results depend on the processing

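No paired analysis was possible because an antibody has a single library here. Of 24 values under 8 alternatives, 14 stayed within 1.5 times the reported count and 10 did not. With scores of at least 50, the genes with Med12 at a start went from 2 to 0. With scores of at least 100 they were also 0, the RNAP2 peaks went from 36 to 22, the Med12 peaks from 20 to 3 and the distal sites with both proteins from 8 to 3. In windows of 100 kb there were 13 Med12 peaks and 3 distal sites, the 5 lost being those of Irx3. In the gene span alone there were 16 RNAP2 peaks, 8 Med12 peaks and 1 distal site. The number of genes with RNAP2 at a start was 5 under every alternative tried except a start distance of 5 kb, which added Irx3. Without read counts, a missing peak cannot be told from one under the score limit.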

Other observations

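Between the windows of Irx3 and Irx5 lies a stretch of 156141 bp that belongs to neither. It holds 1 RNAP2 peak, at 94637899 to 94639595 on chromosome 8 and scoring 461, which overlaps 1 Med12 peak, at 94637457 to 94639079 and scoring 160.12. The site lies 312346 bp from the Irx3 start and 242100 bp from the Irx5 start.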
